A study of Rattus norvegicus with 26 samples.

Results

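Rragd encodes RagD, a small GTPase of the lysosome surface through which amino acids switch on the growth kinase complex mTORC1. It is described here with 8 other genes of that pathway in rat heart: Rragc, Rraga, Mtor, Rptor, Rheb, Tsc1, Tsc2 and Eif4ebp1. The 9 genes were taken from the 13337 named genes of the array by symbol. Rragd was chosen because it was higher at E20 than at week 14 in 1 strain and lower in the other, and the remaining genes because they belong to its pathway. Of the 9 genes 8 were measured, each by 1 probe, and Rheb was not analysed here.

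Heart RNA of male rats was hybridised to Illumina RatRef-12 BeadChips, 1 array for each animal, 26 arrays with 22523 probes in all. SHRSP is the stroke-prone spontaneously hypertensive rat, an inbred strain with high blood pressure and a large left ventricle, and F344 is an inbred strain used as its contrast with low left ventricular mass. No group carried a transgene or received a treatment. Hearts were taken from fetuses late in gestation, at the stage labelled E20 (7 F344, 4 SHRSP), and from adults at week 14 (8 F344, 7 SHRSP). Week 14 RNA came from the left ventricle without septum, whereas E20 RNA came from the heart, which the study's methods describe as both ventricles with the atria removed. TRIzol is the extraction given in all sample labels, but a column kit is named for E20 in the methods, so stage, tissue piece and possibly extraction cannot be told apart, and the litters of the fetuses were not given in the sources used here.

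The Rag GTPases work as pairs, RagA or RagB with RagC or RagD, held on the lysosome by the Ragulator complex of LAMTOR proteins. When amino acids are plentiful the pair binds Raptor, encoded by Rptor, and brings mTORC1 to the lysosome, where the GTPase Rheb activates the kinase encoded by Mtor. The proteins of Tsc1 and Tsc2 switch Rheb off when growth factors or energy are low. mTORC1 phosphorylates the translation repressor 4E-BP1, the product of Eif4ebp1, and the transcription factor TFEB, which otherwise enters the nucleus and turns on lysosome genes. In human cells RRAGD is itself a target of TFEB and its relatives, and in humans variants of RRAGD cause a kidney tubule disease with cardiomyopathy.

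Values are log2 intensities after quantile normalisation by the authors, and differences are log2 differences from limma, so 1 unit is a doubling. Intensities of different probes are not compared with each other. A difference was called where its adjusted p (Benjamini-Hochberg over the 22523 probes) was under 0.05. In whole tissue, fewer cells of a type and less RNA per cell cannot be told apart.

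Arrays of 1 group correlated with each other at r between 0.980 and 0.998 over all probes. The authors had removed arrays of low within-group correlation, most of them from SHRSP fetuses, so high values were partly fixed by that choice. The 5 measured cardiomyocyte markers were bright in every array, with a mean over the 5 genes of 12.88 to 13.26 at E20 and 13.54 to 13.87 at week 14, and 0 of 5 were called between strains at either stage. Of 4 T and NK lymphocyte markers, 3 were lower in SHRSP than in F344 at week 14 (list means 7.39 to 7.67 against 7.95 to 8.42) and 0 at E20. Of 2 atrial markers, Myl7 differed by -3.76 and Nppa by 2.78 (SHRSP minus F344) at week 14, with 0 of 2 called at E20. The study also uses Nppa as a marker of left ventricular hypertrophy, so its value is not specific to atrial cells. Of 4 erythroid markers 1, Ahsp, was 1.51 higher in SHRSP at E20. Single markers of other cells also differed between strains at week 14 (SHRSP minus F344): Col1a2 by 0.55 and Dcn by -0.22 among 5 fibroblast markers, Cdk1 by 0.36 among 3 proliferation markers, and Rgs5 by 0.13 among 2 of smooth muscle and pericytes. Between stages, 3 of 3 macrophage markers were lower at E20 in each strain (7.63 to 7.98 against 8.90 to 9.61), the mean of the 3 proliferation markers lay at 9.85 to 10.17 at E20 and at 7.03 to 7.58 at week 14 (Cdk1 and Rrm2 higher at E20, Ccnb1 at -0.08 in SHRSP and -0.09 in F344), and that of the 4 erythroid markers at 9.76 to 10.39 and at 8.61 to 9.12. Of the 5 fibroblast markers 3 were higher and 2 lower at E20 in each strain. Lymphocyte markers were lower for 2 of 4 genes in SHRSP and 3 of 4 in F344. Cardiomyocyte markers were lower in fetal hearts for 4 of 5 genes in each strain. Further called stage differences are given with SHRSP first and F344 second. They were -1.45 and -1.81 for Vwf (endothelial) and 0.57 and 0.59 for Cnn1 (smooth muscle and pericytes). Atrial Myl7 had 6.24 and 2.46, whereas Nppa had opposite signs, -1.13 and 1.45. The part of these cell markers in the differences below was not tested.

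Rragd separated the strains in every array. In F344 at week 14 its log2 intensity was 9.59, 9.31, 9.13, 9.42, 9.41, 9.35, 9.37 and 9.25 in the 8 hearts, and in SHRSP at the same age it was 7.45, 7.74, 7.67, 7.60, 7.54, 7.52 and 7.48 in the 7 hearts. The lowest F344 heart lay 1.39 above the highest SHRSP heart. At E20 the 7 F344 hearts gave 9.02, 8.98, 9.23, 9.22, 9.10, 9.0007 and 9.04, and the 4 SHRSP hearts 7.85, 7.82, 7.90 and 7.85. Here too the strains did not overlap, with a gap of 1.07. A strain difference at both stages was not particular to Rragd. Across the array 445 probes were called between strains at both stages, and 214 of them were lower in SHRSP at both. By more than 1 log2 unit, 19 probes were lower in SHRSP at both stages. Whether the strains overlapped for those probes was not tested.

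As a mean, Rragd measured 9.35 ± 0.14 (SD, n = 8) in F344 and 7.57 ± 0.10 (SD, n = 7) in SHRSP at week 14, a difference of -1.78 (SE 0.05), or 3.44 times less signal in SHRSP. At E20 the means were 9.08 ± 0.10 (SD, n = 7) and 7.86 ± 0.03 (SD, n = 4), a difference of -1.23 (SE 0.07), or 2.34 times less. Since Rragd was selected on these contrasts, its differences are a description and carry no test. They are differences in the signal of 1 probe, whose sequence was not available here. Whether the strains differ in sequence under that probe was not tested.

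The stage pattern of Rragd ran in opposite directions in the strains. In SHRSP all 4 fetal hearts were above all 7 adult hearts, by 0.09 at the closest, and the mean was 0.29 (SE 0.07) higher at E20. In F344 the mean was 0.27 (SE 0.05) lower at E20, where 5 of the 7 fetal hearts lay below every adult heart and the groups overlapped. The stage difference in SHRSP minus that in F344 was 0.55 (SE 0.09). The strain gap was therefore larger in the adults than in the fetuses by the same amount. The SHRSP week 14 values of Rragd, 7.45 to 7.74, were low, not far above 7.16, the median of all values on the arrays. How far low signal limits the Rragd differences was not tested.

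Opposite stage signs are how Rragd was chosen. Across the array, 5970 probes were called between stages in both strains and 21 of them had opposite signs. The 4 other named genes that were higher at E20 in SHRSP and lower in F344 were Cd8a, a T cell coreceptor gene, with 0.30 in SHRSP and -0.48 in F344, Klkb1, plasma prekallikrein, with 0.18 and -0.73, Ankrd37 with 0.50 and -0.33, and Carhsp1 with 0.24 and -0.22. These 4 were singled out after their values were seen. At E20 their strain differences lay between -0.13 and 0.13, whereas that of Rragd was -1.23.

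**Figure D1:**
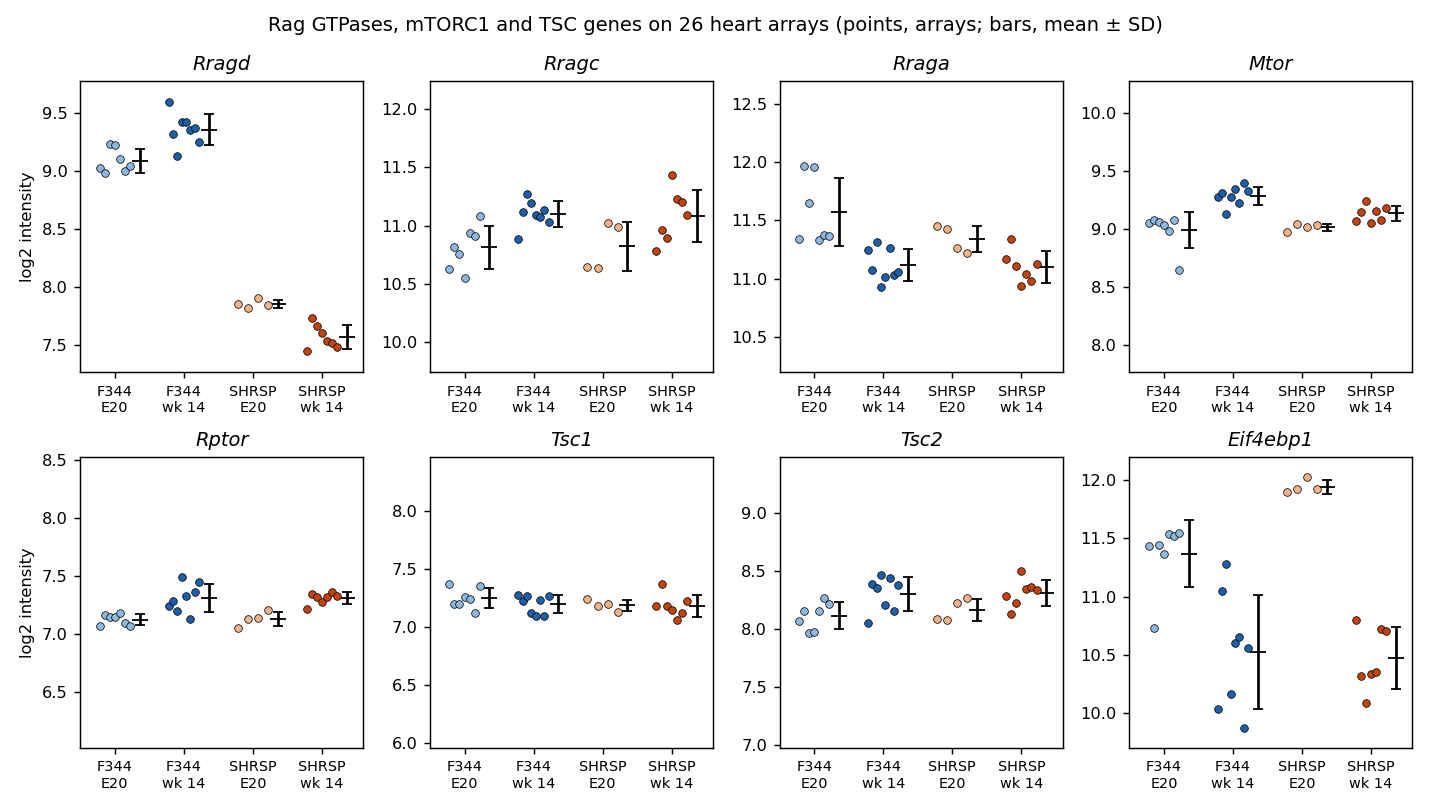
Log2 intensity (y axes, each spanning 2.5 log2 units) of the 8 measured genes in the 4 groups; points are arrays and bars are the mean ± SD. The Rragd points of SHRSP lie between 7.45 and 7.90 and those of F344 between 8.98 and 9.59, whereas the strains overlap for the other genes except Eif4ebp1 at E20.

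Rragc and Rraga, the genes of a paralogue and a partner of RagD, showed no such gap between strains. Rragc ranged from 10.55 to 11.08 (median 10.81) in F344 and from 10.64 to 11.02 in SHRSP at E20, and from 10.88 to 11.27 (median 11.10) in F344 and 10.79 to 11.43 (median 11.09) in SHRSP at week 14. The strain groups overlapped at both stages. The strain difference of Rragc was -0.02 (95% interval -0.20 to 0.17, adjusted p = 0.962 by limma) at week 14 and 0.01 (-0.21 to 0.23, adjusted p = 0.994) at E20.

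Rraga was lower by 0.02 in SHRSP at week 14 (interval of the SHRSP minus F344 difference -0.21 to 0.17, adjusted p = 0.960). At E20 the 4 SHRSP hearts gave 11.45, 11.43, 11.27 and 11.22, and the 7 F344 hearts 11.34, 11.97, 11.65, 11.96, 11.33, 11.38 and 11.36. The F344 fetuses were spread widely, 3 of them above every SHRSP fetus, and the difference of -0.23 (-0.46 to 0.00) had an adjusted p of 0.454.

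Mtor and Rptor encode the kinase and the defining scaffold subunit of mTORC1. Mtor in adult hearts was 9.28, 9.31, 9.13, 9.27, 9.34, 9.23, 9.39 and 9.33 in F344 and 9.07, 9.15, 9.24, 9.05, 9.15, 9.08 and 9.18 in SHRSP. Of the 7 SHRSP hearts 3 lay below every F344 heart, and the ranges overlapped. The difference of -0.15 (-0.25 to -0.05) missed the threshold over all probes (limma, adjusted p = 0.0615). It passed without F344 E20 replicate 7 (adjusted p = 0.00278), F344 week 14 replicate 3 (0.0243) or SHRSP week 14 replicate 3 (0.0409). Rptor differed between strains by 0.00 (-0.09 to 0.08) at week 14 and by 0.01 (-0.10 to 0.11) at E20, and its values of 7.06 to 7.49 lay close to 7.16, the median of all values on the arrays.

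The TSC genes and Eif4ebp1 did not pass the strain test at either stage. Tsc1 differed by -0.02 (-0.10 to 0.07) at week 14 and -0.06 (-0.17 to 0.04) at E20, and Tsc2 by 0.01 (-0.12 to 0.13) and 0.05 (-0.11 to 0.20). Like Rptor, Tsc1 was dim, with values between 7.06 and 7.37. Eif4ebp1 at E20 was 11.90, 11.92, 12.03 and 11.92 in SHRSP and 11.43, 10.73, 11.44, 11.36, 11.54, 11.52 and 11.54 in F344, so the 4 SHRSP fetuses were above all 7 F344 fetuses. The difference of 0.57 (0.16 to 0.99) had an adjusted p of 0.165 in limma.

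Counted together, 0 of the 7 tested genes were called between strains at week 14, where 8.95% of all probes were called, and 0 of 7 at E20, where 3.21% were. In limma 1 of the 7 had an unadjusted p under 0.05 at week 14 (Mtor) and 1 at E20 (Eif4ebp1). The same comparison of means without limma's moderation of the variances called 1 of 7 at week 14 and 0 of 7 at E20 after Benjamini-Hochberg adjustment. The shares of all probes passing by unadjusted p or by this second test are not given here, so those counts stand without a background.

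**Figure D2:**
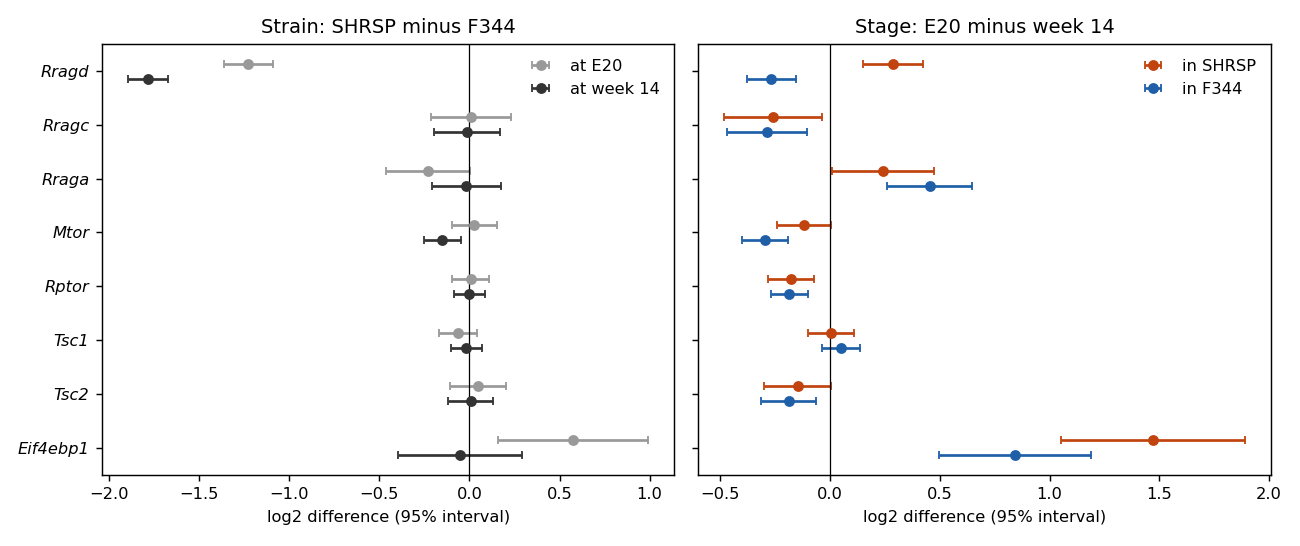
Log2 differences with 95% intervals (x axes) of the 8 measured genes, SHRSP minus F344 at each stage on the left and E20 minus week 14 in each strain on the right. On the left Rragd lies at -1.78 and -1.23 and the other genes between -0.23 and 0.57, and on the right Rragd is the gene at 0.29 in SHRSP and -0.27 in F344.

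Between stages the largest difference among the 8 genes was that of Eif4ebp1, whose product holds back cap-dependent translation until mTORC1 phosphorylates it. In SHRSP the adult hearts gave 10.80, 10.32, 10.08, 10.34, 10.35, 10.72 and 10.70, all below the 4 fetal hearts by at least 1.10. Eif4ebp1 was 1.47 (SE 0.20) higher at E20 in SHRSP (limma, adjusted p = 1.23e-06). In F344 the adult hearts ran from 9.87 to 11.28 with an SD of 0.49, the widest of the 32 combinations of gene and group, and 6 of 7 fetal hearts were above all adults. The F344 difference was 0.84 (SE 0.17, adjusted p = 0.000177). The stage differences of the strains differed by 0.63 (0.09 to 1.17), which missed the threshold over all probes (adjusted p = 0.303).

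In F344 the genes Rraga and Rragc changed in opposite directions between stages. Rraga was 0.45 (SE 0.09) higher at E20 in F344 (adjusted p = 0.000266), with every fetal heart above every adult heart, and 0.24 (SE 0.11) in SHRSP, where the adjusted p was 0.111. Rragc was 0.29 (SE 0.09) lower at E20 in F344 (adjusted p = 0.0118), with 4 of 7 fetal hearts below all adults. In SHRSP the Rragc difference was -0.26 (SE 0.11, adjusted p = 0.0671). It passed the threshold with array weights (0.0214), cyclic loess (0.0383) and bright probes only (0.0411), and also without SHRSP week 14 replicate 1 (0.0237) or replicate 3 (0.0433) and without SHRSP E20 replicate 3 (0.0362) or replicate 4 (0.0437).

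Mtor was lower in fetal hearts of F344, and Rptor in those of both strains. Every F344 fetal heart had less Mtor signal than every F344 adult heart, and the difference was -0.30 (SE 0.05, adjusted p = 2.14e-05). In SHRSP the 4 fetal values, 8.97, 9.04, 9.02 and 9.03, were also below all adult values, by 0.01 at the closest. That difference was -0.12 (SE 0.06, adjusted p = 0.151), and without F344 E20 replicate 7, which enters through the shared estimate of spread, the adjusted p was 0.0239. Rptor was lower at E20 by about the same amount in both strains, -0.18 (SE 0.05, adjusted p = 0.00610) in SHRSP and -0.19 (SE 0.04, adjusted p = 0.000638) in F344.

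Tsc2 was 0.19 (SE 0.06) lower at E20 in F344 (adjusted p = 0.0165), and the SHRSP difference was -0.15 (SE 0.07, adjusted p = 0.147). Tsc1 did not pass in either strain, at 0.00 (-0.10 to 0.11) in SHRSP and 0.05 (-0.04 to 0.14) in F344.

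Of the 7 tested genes, 6 were called between stages in F344 (2 higher and 4 lower at E20), where 35.7% of all probes were called. In SHRSP 2 were called, 1 in each direction, beside 32.7% of all probes. A call in F344 and none in SHRSP is no sign that the strains differ: 0 of 7 interactions were called by limma beside 2.96% of all probes (1.02% higher and 1.94% lower), and 2 had an unadjusted p under 0.05 (Eif4ebp1, and Mtor at 0.18 with an adjusted p of 0.347). The share of all probes with an unadjusted interaction p under 0.05 is not given here. The SHRSP comparison rested on 4 fetal arrays.

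The wider pathway was followed in 7 lists with 75 measured genes besides Rragd. At week 14, 2 of these genes were higher and 7 lower in SHRSP, 12% beside 8.95% of all probes (4.49% higher and 4.46% lower), and at E20 1 was higher and 0 lower, 1.33% beside 3.21% (1.55% higher and 1.66% lower). The list medians of the strain differences lay between -0.09 and 0.06, against -0.00 for all probes at both stages. Between stages the calls were many: 17 higher and 16 lower at E20 in SHRSP (44.0% beside 32.7%, with 3825 of the 22523 probes higher and 3537 lower), and 16 higher and 23 lower in F344 (52.0% beside 35.7%, with 4179 of the probes higher and 3866 lower).

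Among the 9 genes of Rag GTPases and their lysosomal anchor, 2 were higher and 3 lower at E20 in SHRSP (55.6% beside 32.7% of all probes). In F344 2 were higher and 5 lower (77.8% beside 35.7%). The Ragulator subunits Lamtor2 and Lamtor1 changed most. Lamtor2 measured 11.72 in F344 and 11.87 in SHRSP at E20, and 12.97 and 13.04 at week 14, differences of -1.249 (SE 0.09, adjusted p = 6.52e-12) and -1.17 (SE 0.11, adjusted p = 1.14e-09). Lamtor1, the subunit that tethers Ragulator to the membrane, was lower by 0.77 in F344 and by 0.84 in SHRSP. Rragb, which encodes the close relative of RagA, had E20 minus week 14 differences of 0.38 in SHRSP and 0.27 in F344, both called. Rragb was dim, with group means of 7.10 to 7.48. Its strain difference at week 14, -0.11 (adjusted p = 0.0437), was lost when any of 15 of the 26 arrays was left out (highest adjusted p = 0.117).

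Of 7 measured subunits and assembly factors of the mTOR complexes, 1 was higher and 2 lower at E20 in SHRSP (42.9% beside 32.7% of all probes). In F344 1 was higher and 3 lower (57.1% beside 35.7%). The higher gene was Tti1, an assembly factor of mTOR and related kinases, at 0.83 (SE 0.08) in SHRSP and 0.56 (SE 0.07) in F344. In adult hearts Tti1 was 0.27 lower in SHRSP (SE 0.07, adjusted p = 0.00597). Mapkap1, which encodes the mTORC2 subunit SIN1, was 0.13 higher in SHRSP at week 14 (SE 0.03, adjusted p = 0.00347).

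Among 13 genes of amino acid sensing upstream of the Rags, 3 were higher and 2 lower at E20 in SHRSP (38.5% beside 32.7% of all probes). In F344 3 were higher and 3 lower (46.2% beside 35.7%). Sesn1, a sestrin that restrains mTORC1 through the GATOR complexes, had differences of -1.40 (SE 0.19) in SHRSP and -1.23 (SE 0.15) in F344, with group means of 10.30 and 10.76 at E20 against 11.70 and 11.98. Sh3bp4, a negative regulator of the Rags in human cells, was higher at E20 by 0.67 and 0.48. In adults it differed by -0.24 between strains (SE 0.08, adjusted p = 0.0403), a call lost without any of 11 of the 26 arrays (highest adjusted p = 0.0988). Sec13, a GATOR subunit that also serves the nuclear pore and vesicle coats, was higher by 0.60 and 0.40. Lars1, the leucyl-tRNA synthetase gene, was the 1 gene of the 75 with a called interaction. Its stage difference was -0.15 in SHRSP and -0.43 in F344, an interaction of 0.28 (SE 0.08, adjusted p = 0.0473) that was lost when any of 19 of the 26 arrays was left out (highest adjusted p = 0.168).

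Among 15 genes of the growth factor and energy branch, 3 were higher and 1 lower at E20 in SHRSP (26.7% beside 32.7% of all probes). In F344 5 were higher and 2 lower (46.7% beside 35.7%). Igf1r, the receptor of insulin-like growth factors, was higher at E20 by 0.55 and 0.44, and Tbc1d7, the TSC complex subunit, by 0.50 and 0.44, in SHRSP and F344. Akt1, the growth factor kinase gene, was 0.60 (SE 0.16) higher at E20 in F344 (adjusted p = 0.00310) and differed by 0.30 (SE 0.19, adjusted p = 0.259) in SHRSP. Rhebl1, the paralogue of the unmeasured Rheb, was higher at E20 by 0.49 and 0.29, and in adults 0.31 (SE 0.07) lower in SHRSP (adjusted p = 0.00266). Prkaa2, the AMPK catalytic subunit typical of muscle, was 0.18 (SE 0.04) higher in SHRSP adults (adjusted p = 0.00443). Prkaa2 was dim, with adult means of 7.21 in F344 and 7.39 in SHRSP.

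Among 13 mTORC1 effectors, 4 were higher and 3 lower at E20 in SHRSP (53.8% beside 32.7% of all probes). In F344 3 were higher and 3 lower (46.2% beside 35.7%). Beside Eif4ebp1, Rps6, a ribosomal protein phosphorylated downstream of mTORC1, was higher by 0.96 and 0.73, and Grb10, a growth factor adaptor that mTORC1 stabilises, by 0.87 and 0.92. Ulk1, the kinase that starts autophagy and is held off by mTORC1, was lower by 0.90 and 0.91. In adult hearts Rps6 was 0.26 (SE 0.06) lower in SHRSP (adjusted p = 0.00341).

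Among 9 amino acid carriers, 4 were higher and 1 lower at E20 in SHRSP (55.6% beside 32.7% of all probes). In F344 2 were higher and 2 lower (44.4% beside 35.7%). Without single arrays the 4 in SHRSP ranged between 2 and 4. The lower gene of both strains was Slc38a2, a sodium-coupled neutral amino acid carrier, at -0.56 and -0.62. Slc3a2, the heavy chain that partners LAT1, differed by -0.82 (SE 0.21, adjusted p = 0.00234) in F344 and by -0.64 (SE 0.25, adjusted p = 0.0529) in SHRSP. Slc1a5, a glutamine carrier, was 0.28 higher at E20 in SHRSP (adjusted p = 0.0159), with a difference of 0.01 in F344 that was not called, and Slc36a4, a proton-linked family member, was higher by 0.16 and 0.17. Slc7a5, the leucine carrier LAT1, was 0.45 lower in SHRSP at week 14 (SE 0.14, adjusted p = 0.0469), and this call was lost when any of 21 of the 26 arrays was left out (highest adjusted p = 0.108). Slc7a5 in SHRSP adults (mean 7.19) and Slc36a4 (group means 7.11 to 7.33) were dim.

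**Figure D3:**
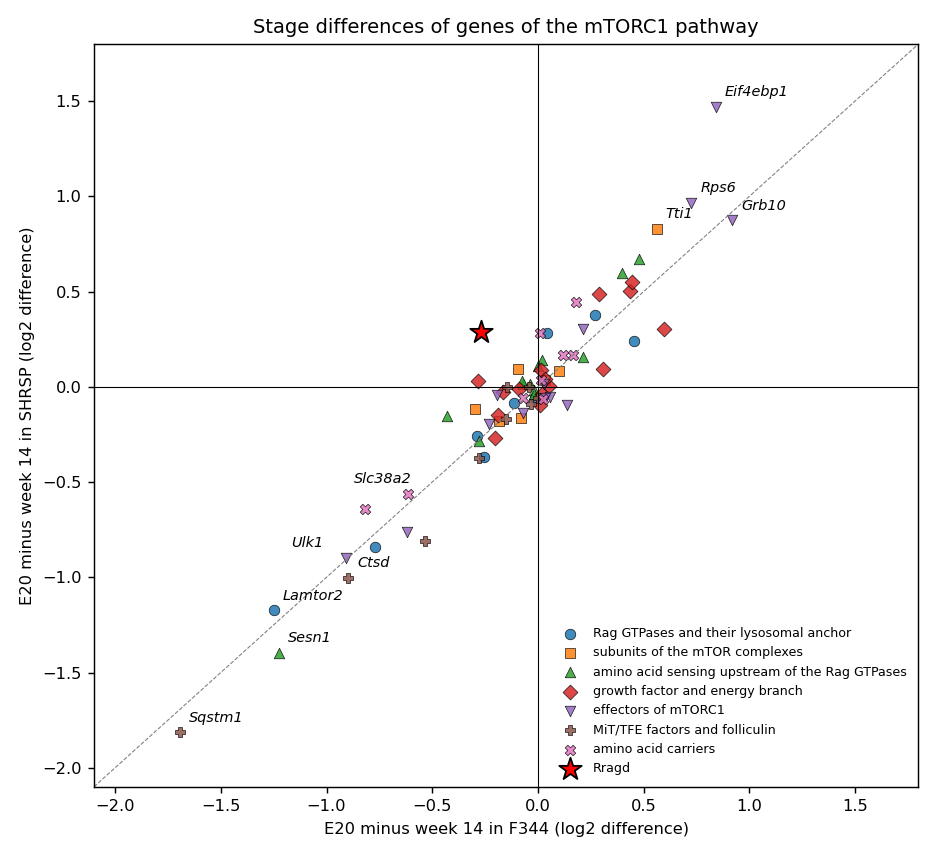
E20 minus week 14 log2 difference in F344 (x axis) and in SHRSP (y axis) for the 75 list genes, marked by list, and Rragd (star); the dashed line marks equal differences. Rragd lies at -0.27 and 0.29, away from the line, and Sqstm1, Sesn1 and Lamtor2 lie far down along it.

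The list of the MiT/TFE factors, their lysosome and autophagy targets and folliculin had 9 measured genes. Of these, 0 were higher and 4 lower at E20 in SHRSP (44.4% beside 32.7% of all probes). In F344 0 were higher and 5 lower (55.6% beside 35.7%). The list medians were -0.17 and -0.15 against -0.00 for all probes. Tfeb itself, Fnip2, Uvrag and Gpnmb were called in neither strain, with Tfeb at -0.06 in SHRSP and 0.00 in F344. Sqstm1, the autophagy receptor p62, had differences of -1.81 (SE 0.11) in SHRSP and -1.70 (SE 0.09) in F344. Ctsd, the lysosomal protease cathepsin D, was lower by 1.01 and 0.90, and the lysosomal membrane gene Lamp1 by 0.81 and 0.54. Flcn, the folliculin gene whose product acts on RagC and RagD, was 0.30 lower in SHRSP adults (SE 0.09, adjusted p = 0.0404), a call lost without any of 9 of the 26 arrays (highest adjusted p = 0.101). Mcoln1, a lysosomal calcium channel, was 0.13 higher in SHRSP fetuses (SE 0.04, adjusted p = 0.0459), a call lost without any of 15 arrays (highest adjusted p = 0.169). Macrophages are rich in lysosomes, and the macrophage markers were lower at E20 in the same arrays, with list means of 7.63 to 7.98 against 8.90 to 9.61. Their part in the lysosomal differences was not tested.

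The MiT/TFE factors bind the E-box CACGTG, which reads the same on both strands. Promoter windows of 4 genes named above are shown for it. They are the genes that held it in the lists of Rag GTPases with their anchor and of MiT/TFE factors with folliculin. Each window has 50 bases from RefSeq on GRCr8, written 5′ to 3′ on the strand of the gene with every CACGTG in capitals.
Lamtor1, chr1:165683915-165683964, plus strand: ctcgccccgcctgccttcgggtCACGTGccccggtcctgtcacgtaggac
Mcoln1, chr12:6358214-6358263, plus strand: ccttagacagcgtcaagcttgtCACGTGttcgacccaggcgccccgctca
Lamp1, chr16:83075219-83075268, minus strand: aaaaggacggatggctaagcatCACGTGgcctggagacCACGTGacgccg
Ctsd, chr1:206968951-206969000, minus strand: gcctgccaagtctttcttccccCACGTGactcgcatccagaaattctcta

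In the promoter table, which holds 300 bases around each gene's start, Lamp1 held 5 copies of the letters, Mcoln1 and Ctsd 2 each and Lamtor1 1. Of 65 pathway genes with a promoter in the table, 11 held at least 1 copy in any of their promoters. Counted by promoter and not by gene, 6.42% of all 33469 promoters held it. A gene can have several promoters, so the count by gene and the share by promoter are not directly comparable. Among the 9 genes of the main set, the promoter of Rheb held it and those of Mtor, Tsc1 and Tsc2 did not; the others had no entry. Sqstm1, Lamtor2 and Sesn1, also named above, had no copy in this window. In the lists with windows shown, Tfeb, Flcn, Fnip2, Gpnmb, Uvrag, Lamtor4, Lamtor5 and Slc38a9 had none either. Igf1r and Slc7a5, named above from other lists, did hold it. Their E20 minus week 14 differences in SHRSP were 0.55 and 0.45. A match is a string of letters and not a measured site.

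The genes beside Rragd in the annotation order were examined because its strain difference was present at both stages. This check was chosen after the values were seen. Of the 5 nearest measured genes on each side, 1 of 10 was called between strains at week 14, beside 8.95% of all probes. At E20 0 of 10 were called, beside 3.21% of all probes. The called gene was Lyrm2, at -0.41 (SE 0.11, adjusted p = 0.0138) in adults and -0.33 (SE 0.13, adjusted p = 0.255) in fetuses. The immediate neighbours, Ankrd6 and Ube2j1, had differences of 0.04 and -0.05 at week 14. Lyrm2 had a mean of 10.59 over the 26 arrays and the other 9 neighbours means between 6.89 and 7.48, near the median of all values.

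**Figure D4:**
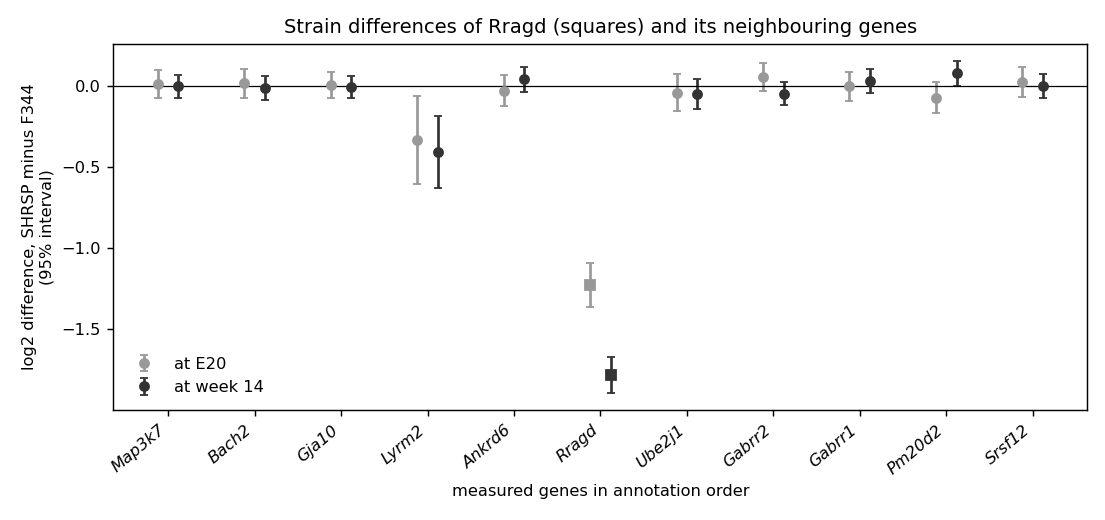
SHRSP minus F344 log2 differences with 95% intervals (y axis) for Rragd (squares) and the 5 measured genes on each side in annotation order (x axis, not to scale), at E20 and at week 14. Rragd lies at -1.23 and -1.78, Lyrm2 at -0.33 and -0.41, and the other 9 genes between -0.07 and 0.08.

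The genes whose values followed Rragd most closely over the 26 arrays were also split by strain. The highest Pearson correlations were those of Mrpl18, a mitochondrial ribosomal protein gene (r = 0.978), Rnf115, a ubiquitin ligase gene (0.960), Sars2, the mitochondrial seryl-tRNA synthetase gene (0.943), Cct6a, a chaperonin subunit gene (0.942), and Tmem243 (0.937). Mrpl18 had means of 11.74 and 11.65 in F344 and 7.48 and 7.52 in SHRSP, at E20 and week 14. The lowest were Washc3 (-0.967), Sorbs2 (-0.966), Mrpl17 (-0.962), Pxmp4 (-0.957) and Tfam (-0.948), which were higher in SHRSP. The arrays form strain clusters, so these values describe the shared gap and no more.

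Within groups, after each group mean was removed, other genes followed Rragd: Sf3a1, a splicing factor gene (r = 0.890), Hmga1 (0.875), Mxra8 (0.859), Dhdds (0.850) and Sertad4 (0.847) with it, and Mark3 (-0.842), Mtch1 (-0.830), Acp1 (-0.823), Fstl3 (-0.823) and Spsb2 (-0.821) against it. Among the 28 pairs of the 8 measured genes these correlations ran from -0.56 to 0.70 with a median of -0.19. The pair at 0.70 was Rragc with Tsc2, and Rragd lay at -0.56 with Tsc2, at -0.50 with Eif4ebp1 and at -0.27 with Rragc. All are descriptions over 26 arrays that share a normalisation.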

How the data were processed

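Rat heart RNA was measured on Illumina RatRef-12 arrays, 1 array for each animal. The authors exported probe profiles with GenomeStudio, removed arrays of low within-group correlation, and applied a log2 transformation and quantile normalisation with the R package lumi. The deposited log2 values (22523 probes, 26 arrays) were used as given. A second deposited file of intensities has 52 columns whose numeric headings match no sample label, and these were not used.

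Probes were named through the platform annotation: 13793 had 1 symbol, 0 several and 8730 none, and 13752 of the named probes were matched to RefSeq by gene ID. The brightest probe stood for a gene. The genome build behind the arrays was not given in the sources used here, and promoter coordinates are those of the RefSeq table on GRCr8.

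Groups came from the labels. limma 3.58.1 in R 4.3.3 fitted 4 group means to the 26 arrays together; Benjamini-Hochberg adjustment ran over the full 22523 probes, dim ones included. The fit was tested on simulated data. Precision is limited by how many arrays a group has, 4 at the least (SHRSP E20). The interaction is the stage difference in SHRSP minus that in F344. Figures and tables used Python 3.11.15, pandas 2.3.3 and Matplotlib 3.10.9.

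Genes named are the 9 members, the 5 highest and 5 lowest correlations with Rragd by each measure, and of each list up to 3 called genes a comparison with the largest change, with their values in the other strain or stage. Members and lists were chosen with earlier results of these data known. Alternatives were cyclic loess, median centring, array weights, an intensity trend, bright probes only, only the groups compared, a pooled-variance t-test for each probe, the replicate number as a block, and leaving out each array.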

Additional observations from a re-analysis of the deposited data

Results flagged for a closer look

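In 32 combinations of gene and group, 2 held an array far from the others of its group, and chance alone marks about 1 in 20. Mtor was 8.65 in F344 E20 replicate 7, against 8.98 to 9.07 in the 6 other F344 fetuses, a gap of 0.775 of the group's range. Without this array the Mtor strain difference at week 14 passed the threshold (limma, adjusted p = 0.00278), as did its stage difference in SHRSP (0.0239), although the array belongs to neither comparison, because all groups share 1 estimate of spread. Eif4ebp1 was 10.73 in F344 E20 replicate 2, against 11.36 to 11.54 in the other F344 fetuses, a gap of 0.780 of the range.

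Lars1 differed between the strains in its stage difference, by 0.28 (adjusted p = 0.0473, 75 list genes examined), and this call was lost without any of 19 of the 26 arrays.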

How the results depend on the processing

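Over the reported setting and 34 others (32 for the interaction), the Rragd differences kept their sign: they lay between -1.81 and -1.75 at week 14, -1.250 and -1.20 at E20, 0.25 and 0.31 between stages in SHRSP, -0.30 and -0.23 in F344, and 0.52 and 0.59 for the interaction. The t-test, the intensity trend, only the groups compared and bright probes only keep the group means, so they could not move these differences. Leaving out an array of a group outside the comparison could not either. Rragd was also chosen on its stage signs. For the 7 other genes 1156 of 1176 alternative values kept the side of the threshold, 0 called values reversed and 56 uncalled values changed sign. The 7-gene count at week 14 went from 0 to 1 with only the groups compared, with a pooled-variance t-test for each probe and with bright probes only (Mtor each time), and lay between 0 and 1 when each array was left out. At E20 it went from 0 to 1 (Eif4ebp1) with only the groups compared (adjusted p = 0.0252) and with array weights (0.0494). Between stages in SHRSP it went from 2 to 4 with only the groups compared and with the t-test, which added Rraga and Mtor, and to 3 (Rragc added) with array weights, cyclic loess and bright probes only, and lay between 2 and 3 without single arrays. The counts of 6 in F344 and 0 for the interaction did not move. The unadjusted t-test counts (p under 0.05) were 1 at week 14, 1 at E20, 4 in SHRSP and 6 in F344. Shares of all probes under that rule are not given here. The 75 list genes gave 5 to 9 calls at week 14 and 0 to 3 at E20 without single arrays, 27 to 34 between stages in SHRSP and 36 to 43 in F344. Counts of single lists moved by at most 2 genes in any setting. Of the 20 genes most like Rragd, 13 to 20 stayed in the list without single arrays, the fewest without F344 week 14 replicate 3. The cause of these changes was not tested. Median centring and loess moved the median of all probes by less than 0.01. The deposited values were already quantile-normalised, so median centring could change little and is a weak check. Each of the 8 genes has 1 probe, so a mean over probes gave no other value, and calls of dim probes are limited by signal near background.

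The replicate numbers mark separate animals. Same-numbered arrays of different groups deviated together in 13 of 33 pairs (r over 0.1, range -0.24 to 0.44, median 0.03). How the arrays were grouped during processing was not given in the sources used here. These correlations therefore cannot tell whether same-numbered arrays shared a processing step. With the replicate number as a block the counts of called genes were 0 and 0 between strains at week 14 and E20, 2 and 6 between stages in SHRSP and F344, and 0 for the interaction.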
